A study of Mus musculus with 45 samples.

Results

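The genes described here are 10 members of the Ms4a family (membrane-spanning 4-domains, subfamily A) of the mouse: Ms4a8a, Ms4a10, Ms4a12 and Ms4a18, taken as epithelial, and Ms4a4b, Ms4a4c, Ms4a6b, Ms4a6c, Ms4a6d and Ms4a7, taken as immune. They were picked by name from the 50600 gene IDs of the deposited tables, with their levels in these libraries already known, so the higher level of each in knockout colon describes the choice: it is given with no p-value, and calls in that comparison are counted as a description only. The libraries are poly(A) RNA-seq of the distal colon from mice in 2 cohorts, in a study of a selective antagonist of GPR4, a proton-sensing receptor. The Il10 knockout lacks an anti-inflammatory cytokine and is a common mouse model of spontaneous colitis.

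The first cohort held Il10 knockout mice given vehicle (n = 10), knockout mice given compound 13 at 10 mg/kg (n = 7) or at 30 mg/kg (n = 9), and untreated wild-type (WT) mice (n = 8). The second cohort, sampled at day 77 according to its titles, held Il10 knockout mice given an antibody to p40, the subunit shared by IL-12 and IL-23 (n = 5), and knockout mice given vehicle (n = 5). Every group other than WT therefore carried the Il10 deletion, and the WT mice received no vehicle. One further knockout library has a title and a treatment entry that name different doses and entered no group. Strain, sex and age are not given in the sources used here, nor is it stated that each library is a separate animal, so the tests measure the spread between libraries.

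Ms4a proteins cross the membrane 4 times and many sit beside receptors in the plasma membrane of blood cells. The best-known relatives are Ms4a1, which encodes the B cell antigen CD20, and Ms4a2, the beta chain of the high-affinity IgE receptor of mast cells. A smaller branch is found in epithelium, where human MS4A12 is a surface protein of colonocytes that has been tied to store-operated calcium entry. Within the immune branch, Ms4a4b and Ms4a6b are known from mouse T cells, Ms4a6c from monocytes, and Ms4a6d and Ms4a7 from macrophages.

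All 10 genes lie on chromosome 19 between positions 10962293 and 11604849 of GRCm38 (mm10), a span of 642557 bases inside a cluster of 19 annotated Ms4a genes. The 4 epithelial members lie on the minus strand at one end of the cluster, and Ms4a4c, Ms4a4b, Ms4a6c and Ms4a6b lie side by side on the plus strand. RefSeq promoter windows (GRCm38.p6, from 250 bases before to 50 bases after each start) were found for 9 of the 10 members, in 10 windows, and for Ms4a6d none was listed. The windows of the 4 epithelial members are shown because each holds CAAAGTC, which is part of the sequence that HNF4 factors of gut epithelium recognise, on 1 of its strands, in capitals. They lie at chr19:11081054-11081353 for Ms4a8a, chr19:10974651-10974950 for Ms4a10, chr19:11232404-11232703 for Ms4a12 and chr19:11017914-11018213 for Ms4a18, and are printed 5′ to 3′ along the minus strand.
Ms4a8a: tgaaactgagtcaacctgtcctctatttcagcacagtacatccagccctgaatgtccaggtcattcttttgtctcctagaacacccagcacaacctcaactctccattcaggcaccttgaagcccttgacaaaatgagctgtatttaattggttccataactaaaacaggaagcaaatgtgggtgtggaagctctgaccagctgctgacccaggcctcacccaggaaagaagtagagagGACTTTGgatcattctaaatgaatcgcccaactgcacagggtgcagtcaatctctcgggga
Ms4a10: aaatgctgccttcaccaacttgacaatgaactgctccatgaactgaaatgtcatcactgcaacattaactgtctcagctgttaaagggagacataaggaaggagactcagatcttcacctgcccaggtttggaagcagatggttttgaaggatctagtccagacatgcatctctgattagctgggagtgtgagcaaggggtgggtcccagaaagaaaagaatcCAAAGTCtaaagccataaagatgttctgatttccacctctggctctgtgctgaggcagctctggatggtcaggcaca
Ms4a12: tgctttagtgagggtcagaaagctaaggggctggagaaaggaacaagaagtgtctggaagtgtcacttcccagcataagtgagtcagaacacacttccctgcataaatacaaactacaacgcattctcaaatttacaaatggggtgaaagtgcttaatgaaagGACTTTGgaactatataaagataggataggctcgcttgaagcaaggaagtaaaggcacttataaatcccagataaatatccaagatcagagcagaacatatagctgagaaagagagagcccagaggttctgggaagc
Ms4a18: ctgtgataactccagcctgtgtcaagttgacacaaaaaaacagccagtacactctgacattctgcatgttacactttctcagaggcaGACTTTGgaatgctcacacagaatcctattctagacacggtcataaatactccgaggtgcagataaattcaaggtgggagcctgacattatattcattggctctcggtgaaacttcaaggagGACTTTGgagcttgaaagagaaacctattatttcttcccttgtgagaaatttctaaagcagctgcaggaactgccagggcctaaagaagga

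The match began 11 bases before the start in Ms4a8a, 27 in Ms4a10 and 87 in Ms4a12, and Ms4a18 held 2 matches, 163 and 41 bases before it. None of the 6 windows of immune members held CAAAGTC, and of all 32851 mouse windows 4.44% did. Ms4a8a, Ms4a12 and Ms4a18 further shared AGGACTTTGGA, the longest run common to the 3 windows, which 13 of the 32851 windows (0.0396%) held on either strand. CAAAGTC and the shared run were picked after the sequences had been read, so the shares are descriptions. The run holds the reverse complement of CAAAGTC, so the matches overlap. Every motif was searched on both strands. The shorter CAAAG was found in all 4 epithelial windows and in 53.9% of all windows. TTTATNG, a core recognised by CDX2, was found in the Ms4a10 window of these 4 and in 10.9% of all windows, GATAA, the GATA core, in those of Ms4a12 and Ms4a18 and in 25.4%, and TTCNNNGAA, the STAT element, in that of Ms4a12 and in 8.3%. A match describes the letters of the window and nothing more.

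The windows of Ms4a4b, at chr19:11443308-11443607, and of Ms4a4c, at chr19:11407411-11407710, are shown because the 2 genes are neighbouring copies with different partners in expression, as described further on. Both are printed 5′ to 3′ along the plus strand, with GAGGAA, the core recognised by PU.1, in capitals.
Ms4a4b: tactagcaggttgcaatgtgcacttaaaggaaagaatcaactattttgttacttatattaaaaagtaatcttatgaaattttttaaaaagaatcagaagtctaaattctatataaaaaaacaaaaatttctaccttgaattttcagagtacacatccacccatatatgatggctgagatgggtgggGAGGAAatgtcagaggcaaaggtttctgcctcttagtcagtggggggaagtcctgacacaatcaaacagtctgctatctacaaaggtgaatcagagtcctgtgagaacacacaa
Ms4a4c: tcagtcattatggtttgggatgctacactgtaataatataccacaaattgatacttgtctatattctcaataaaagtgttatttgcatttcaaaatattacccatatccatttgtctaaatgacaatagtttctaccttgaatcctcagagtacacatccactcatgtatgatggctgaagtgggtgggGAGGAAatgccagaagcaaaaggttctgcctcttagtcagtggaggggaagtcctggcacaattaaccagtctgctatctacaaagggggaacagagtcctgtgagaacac

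The best local alignment of these windows covered 182 bases, of which 162 (89.0%) were identical, and that of the Ms4a6b and Ms4a6c windows covered 213 bases with 85.4% identity. GAGGAA began 64 bases before the start of Ms4a4b and 61 before that of Ms4a4c. It was found in 28.3% of all windows and in 3 of the 6 immune windows, the third being 1 of the 2 windows of Ms4a7. Copies this close can share reads. Of all 50-base stretches of their annotated transcripts, 10.5% in Ms4a6c, 8.19% in Ms4a4c, 3.57% in Ms4a6b, 2.54% in Ms4a6d and 2.4% in Ms4a4b also occur in another gene, against 0 in Ms4a8a, Ms4a10 and Ms4a18.

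Il10 had 0 counts in every knockout library and 10 counts in all over the 8 WT libraries, 4 of which were also at 0. At this depth the gene was near the limit of detection in WT colon, so the deletion check rests on 10 counts. Total counts ran from 22682471 to 36279743 over the 45 libraries. The epithelium list (8 genes, led by Epcam and Cdh1) summed to between 8805 and 17308 TPM in all grouped libraries, and the surface colonocyte list (9 genes, led by Car1 and Car4) to between 856 and 11928 TPM. Smooth muscle genes (5 in the list) summed to between 167 and 6549 TPM. In bulk tissue, fewer cells of a type and less RNA per cell cannot be told apart.

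Ms4a8a was by far the most abundant member. On the TPM scale, which allows for length and so lets genes be compared, its median was highest of the 10 in each of the 6 groups, at 1007 TPM in knockout vehicle colon and 540 TPM in WT colon. Ms4a12 was second in each group, at 60.7 TPM in knockout vehicle colon and 18.4 TPM in WT colon, and its libraries never reached those of Ms4a8a. Ms4a18 was lowest in each group, at 0.57 TPM in knockout vehicle colon and 0.02 TPM in WT colon. The other 7 members had medians between 3.42 and 12.2 TPM in knockout vehicle colon and between 1.56 and 6.24 TPM in WT colon, and neighbours in that order overlapped across libraries.

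**Figure D1:**
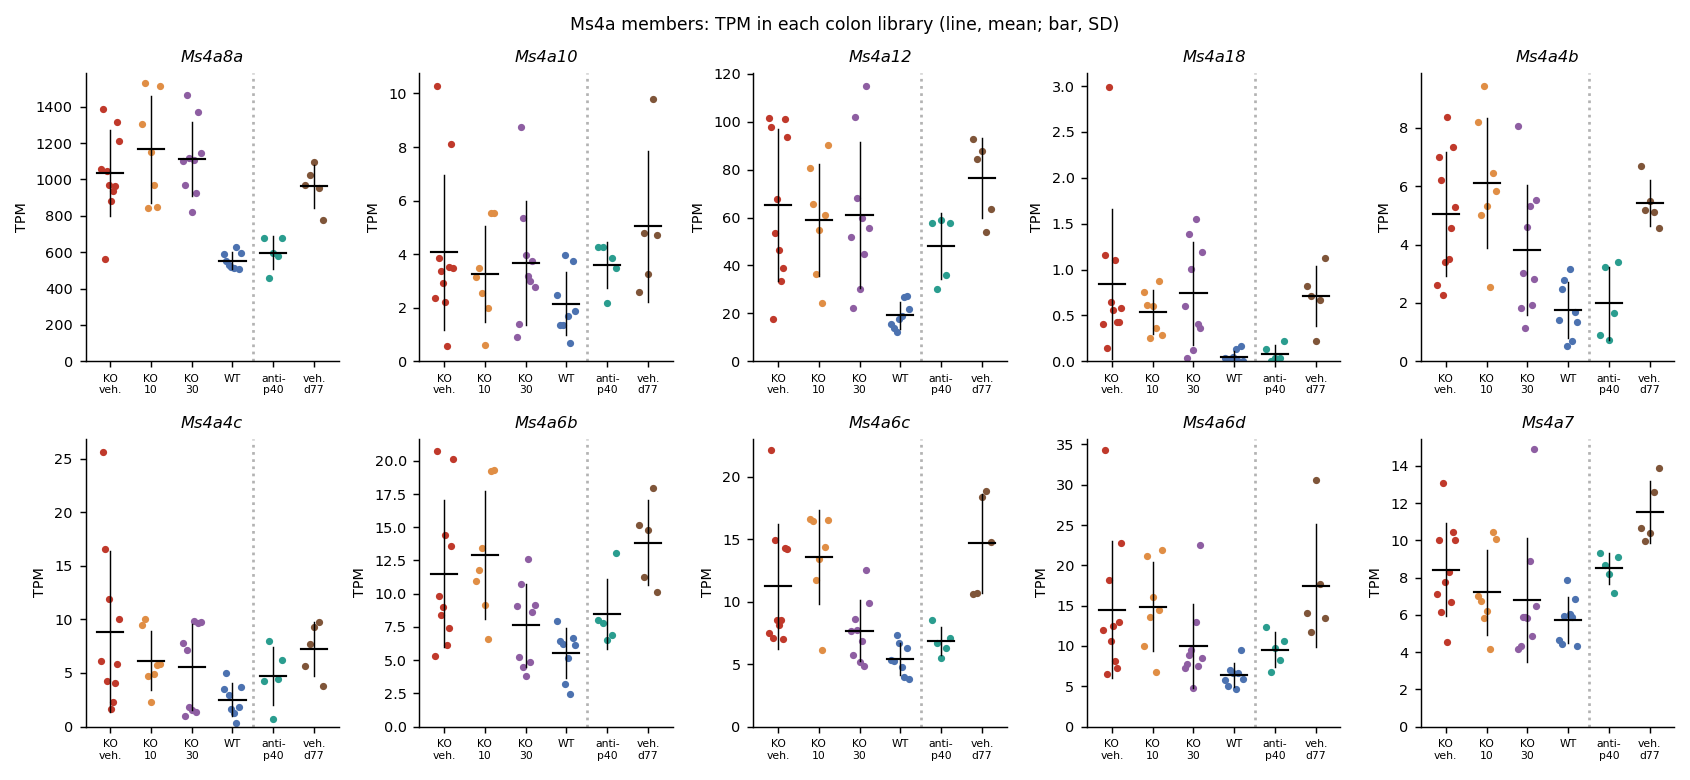
TPM of each member (vertical axis, linear from 0) in every library of the knockout vehicle, 10 mg/kg, 30 mg/kg and WT groups, and, right of the dotted line, of the day 77 anti-p40 and day 77 vehicle groups, both Il10 knockout. Points are libraries, horizontal lines are means and vertical bars are SDs. The WT libraries lie low for Ms4a8a, Ms4a12 and Ms4a18, and the anti-p40 libraries of Ms4a8a, Ms4a4b, Ms4a6c and Ms4a7 lie wholly below the day 77 vehicle libraries.

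In knockout vehicle colon all 10 members were higher than in WT colon. The levels are described first for the epithelial members. Ms4a8a had 561, 1007 and 1386 TPM as the lowest, median and highest of the 10 knockout vehicle libraries, against 510, 540 and 629 TPM in the 8 WT libraries. Of the knockout libraries 9 lay above every WT library and 1 lay inside the WT range. The edgeR log2 fold change, computed on counts and relative to all genes, was 1.11 ± 0.15 (SE).

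Ms4a12 had 17.6, 60.7 and 101 TPM (lowest, median, highest) in knockout vehicle libraries, against 12.1, 18.4 and 27.3 TPM in WT libraries. Again 9 of 10 knockout libraries exceeded every WT library, and the log2 fold change was 1.96 ± 0.32 (SE). Ms4a12 was thus more variable in the knockout than in WT, with an SD of 31.5 TPM in knockout vehicle libraries and 5.62 TPM in WT libraries. Ms4a10, a member with no settled function, was low, with 0.56, 3.42 and 10.3 TPM in knockout vehicle libraries and 0.68, 1.77 and 3.95 TPM in WT libraries. Most libraries of the 2 groups overlapped, and only 2 knockout libraries lay above the WT range. Its log2 fold change was 1.0 ± 0.36 (SE), and it was 0.58 in limma on log2(TPM + 1), where the call was lost. The edgeR call was also lost without WT library 2 or 6 (log2 fold change 0.94 and 0.89) and without knockout vehicle library 2 or 9 (0.84 and 0.83).

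Ms4a18, also of unknown function, was close to absent from WT colon: 9 counts in all were assigned to it in the 8 WT libraries, 4 of them at 0, against 204 counts in the 10 knockout vehicle libraries. In TPM that was 0.14, 0.57 and 2.99 in knockout vehicle libraries and 0, 0.02 and 0.17 in WT libraries. Its fitted log2 fold change of 4.15 ± 0.71 (SE) rests on those few counts. All 10 knockout libraries had counts, and 9 exceeded the highest WT library.

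Among the immune members, those known from T cells differed in size. Ms4a4b had 2.27, 4.93 and 8.38 TPM in knockout vehicle libraries, against 0.52, 1.56 and 3.15 TPM in WT libraries, a log2 fold change of 1.82 ± 0.33 (SE), with 8 of 10 knockout libraries above the WT range. Ms4a6b had 5.31, 9.45 and 20.8 TPM in knockout vehicle libraries, against 2.43, 6.2 and 7.96 TPM in WT libraries, a log2 fold change of 1.16 ± 0.21 (SE). In Ms4a6b, 3 of the 10 knockout libraries lay within the WT range.

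Ms4a4c had 1.66, 6.02 and 25.6 TPM in knockout vehicle libraries, against 0.31, 2.38 and 4.96 TPM in WT libraries. Its log2 fold change was 1.52 ± 0.41 (SE), and 4 of 10 knockout libraries lay within the WT range. The monocyte gene Ms4a6c had 6.97, 8.52 and 22.1 TPM in knockout vehicle libraries, against 3.78, 5.26 and 7.32 TPM in WT libraries, a log2 fold change of 1.23 ± 0.23 (SE). Only 2 knockout libraries reached down into the WT range.

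Of the macrophage genes, Ms4a6d had 6.48, 12.2 and 34.3 TPM in knockout vehicle libraries, against 4.66, 6.24 and 9.54 TPM in WT libraries, a log2 fold change of 1.42 ± 0.29 (SE). Ms4a7 had 4.55, 8.02 and 13.1 TPM in knockout vehicle libraries, against 4.3, 5.91 and 7.85 TPM in WT libraries. Its log2 fold change of 0.81 ± 0.18 (SE) was the smallest of the 10, and 5 of 10 knockout libraries lay within the WT range.

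All 10 members passed the filter on low counts in this comparison and all 10 were called higher at an adjusted p under 0.05, where 25.2% of 16435 genes tested were called higher; since the members were chosen with this contrast known, nothing is read from that count. No member separated the groups completely in TPM, where 1.95% of genes had every knockout vehicle library above every WT library. The median log2 fold change of the 10 was 1.32, against -0.01 over all genes. Of the 11 other Ms4a and Tmem176 genes in the tables, 6 were tested and 4 were called higher: Ms4a1, Ms4a4a, and the tetraspan genes Tmem176a and Tmem176b. Of 23 alternatives, Ms4a4a lost its call in 11 (adjusted p up to 0.117), namely limma and the edgeR fits without WT library 1, 2, 3, 4, 6 or 8 or knockout vehicle library 2, 4, 9 or 10. Ms4a1 lost it in 5 (adjusted p up to 0.06), namely limma, edgeR with no filter on low counts and the fits without WT library 4 or knockout vehicle library 2 or 10, and Tmem176b in limma alone (0.0515). Ms4a4d and Ms4a14 were not called, with log2 fold changes of 0.09 ± 0.19 and -0.27 ± 0.37 (SE). In the limma fit on log2(TPM + 1) the median of all genes moved to -0.16 and 2192 of 8285 called genes were higher, against 4147 of 8113 in edgeR. The members kept their direction there, Ms4a18 apart, which lay under that fit's TPM minimum.

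**Figure D2:**
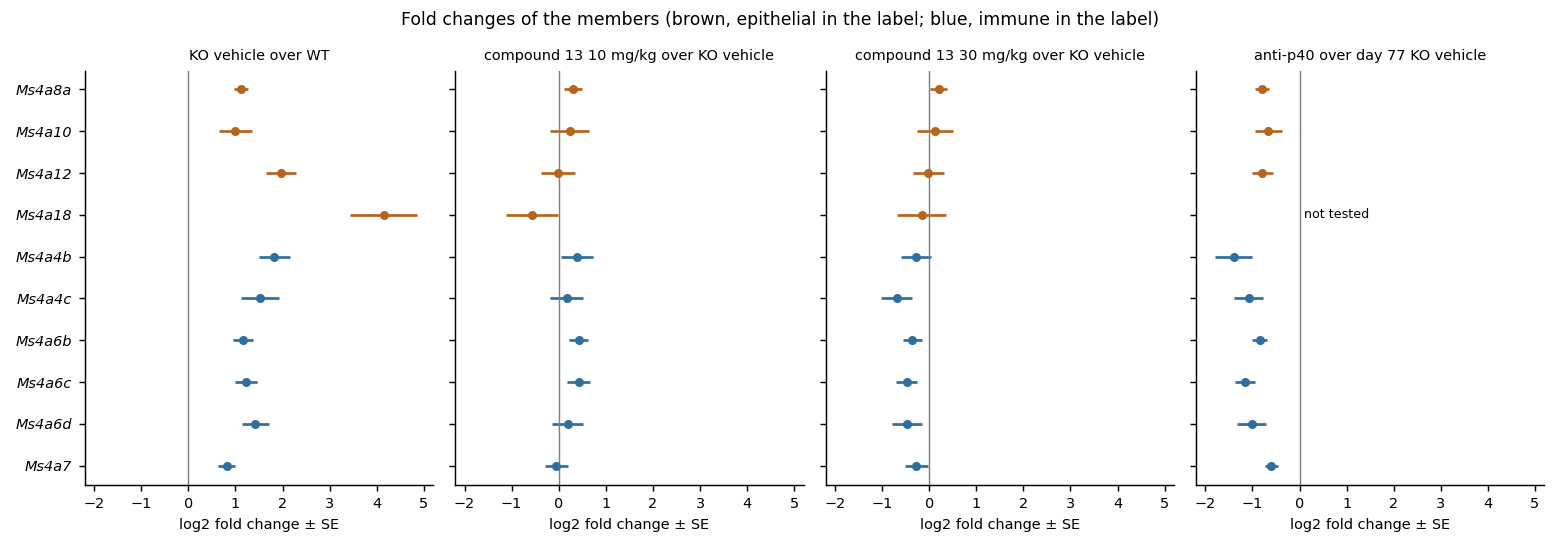
Log2 fold change ± SE (horizontal axis, edgeR on counts) of each member in 4 comparisons: knockout vehicle over WT, compound 13 at 10 mg/kg and at 30 mg/kg over knockout vehicle, and anti-p40 over day 77 knockout vehicle. All 10 members lie right of 0 in the first panel, values lie between -0.69 and 0.42 in the compound panels, and the 9 members tested lie left of 0 under anti-p40.

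Several cell type lists moved in this comparison, where 25.2% of 16435 genes were called higher and 3966 genes were called lower. Smooth muscle genes summed to 183, 1430 and 4694 TPM (lowest, median, highest) in knockout vehicle libraries and 2843, 4533 and 6549 TPM in WT libraries, with 5 of 5 called lower. Leukocyte genes summed to 208, 479 and 828 TPM in knockout vehicle libraries and 95.5, 238 and 344 TPM in WT libraries, with 6 of 6 called higher. Of the epithelium genes 7 of 8 were called higher, of the macrophage and monocyte genes 10 of 11, of the T cell genes 6 of 8, of the interferon response genes 8 of 8, and, of those tested, of the neutrophil genes 4 of 4 and of the NK and cytotoxic genes 5 of 5. Other lists were mixed. Of the surface colonocyte genes 4 of 9 were called higher and 2 lower, and of the B cell genes 3 of 6 were called higher. Of the 4 mast cell genes tested 3 were called higher and 1 lower. Goblet cell genes had 4 of 6 called higher, and small intestinal enterocyte genes 2 of 5 tested. No gene of these lists was at 0 throughout a group. The part of these shifts in the members' levels was not tested.

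To set the members against a gene of their own compartment, each epithelial member was divided by Epcam, a surface protein of all colonic epithelium, and each immune member by Ptprc, which encodes the pan-leukocyte antigen CD45. These ratios were added after the levels had been seen. Epcam itself had 1212, 1319 and 1451 TPM in knockout vehicle libraries and 1113, 1294 and 1348 TPM in WT libraries, so its TPM overlapped. On counts its log2 fold change was 0.25 (edgeR adjusted p = 0.00663), against 0.06 in limma (adjusted p = 0.39). Ptprc had 1.35 (edgeR adjusted p = 0.00343). The epithelium list summed to a median of 13630 TPM in knockout vehicle libraries and 9665 TPM in WT libraries. The ratios below therefore stand for Epcam alone and not for the list. Ms4a8a stood at 46.3%, 78.6% and 105% of the Epcam TPM in knockout vehicle libraries, against 38.4%, 44.0% and 48.5% in WT libraries. For Ms4a12 the figures were 1.45%, 4.52% and 7.44% in knockout vehicle libraries and 1.08%, 1.46% and 2.06% in WT libraries. For Ms4a8a, Ms4a12 and Ms4a18 alike, 9 of 10 knockout libraries lay above every WT library on this ratio. For Ms4a10 only 2 of 10 did, and 1 lay below every WT library.

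Of the immune members, Ms4a6b stood at 26.6%, 37.0% and 60.2% of the Ptprc TPM in knockout vehicle libraries, against 23.1%, 46.3% and 50.9% in WT libraries, and 1 knockout library lay above the WT range. For Ms4a6c, Ms4a6d and Ms4a7 no knockout vehicle library lay above the highest WT ratio. Ms4a4c had 4 of 10 knockout libraries above it and Ms4a4b 2 of 10, at 7.54%, 17.1% and 35.0% in knockout vehicle libraries and 7.19%, 10.2% and 26.6% in WT libraries. Whether the 2 kinds of ratio differ from each other was not tested.

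**Figure D3:**
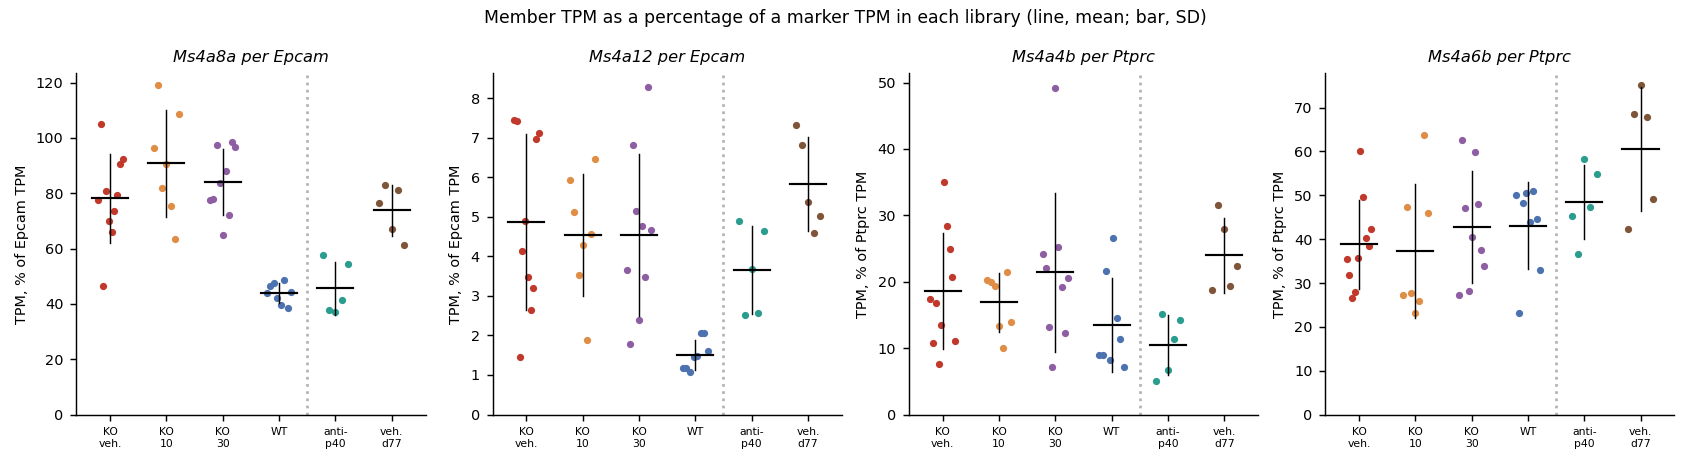
TPM of Ms4a8a and Ms4a12 as a percentage of the Epcam TPM, and of Ms4a4b and Ms4a6b as a percentage of the Ptprc TPM (vertical axes, linear from 0), in each library of the 6 groups in the order used for the TPM plot. Lines are means and bars SDs. The WT and anti-p40 libraries sit low for Ms4a8a, while the Ms4a6b ratios of knockout vehicle and WT libraries overlap.

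No member passed the threshold against vehicle at either dose of compound 13. Ms4a8a had medians of 1007, 1153 and 1105 TPM in the vehicle, 10 mg/kg and 30 mg/kg groups, with the full ranges 561 to 1386, 841 to 1531 and 822 to 1464 TPM. At 10 mg/kg its log2 fold change over vehicle was 0.31, with a 95% interval of -0.09 to 0.71. The higher dose gave 0.20, with an interval of -0.18 to 0.57. Ms4a12 had medians of 60.7, 61.2 and 55.5 TPM in the same order, and a log2 fold change of -0.02 at both doses, with a 95% interval of -0.76 to 0.71 for the lower dose and of -0.70 to 0.67 for the higher.

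At 10 mg/kg 0 of 10 members were called, where 2 of 16948 genes (0.0118%) were, and at 30 mg/kg 0 of 10, where 0 of 16948 (0.0%) were. The count at an unadjusted p under 0.05 was 1865 genes at 10 mg/kg and 1004 at 30 mg/kg; DESeq2 called 72 genes at 10 mg/kg and 3 at 30 mg/kg, and limma called 20 and 0 at those doses. No member was called at either dose under any alternative run. The intervals are wide for the low members. The log2 fold change of Ms4a18 was -0.57 for the lower dose (95% interval -1.72 to 0.59) and -0.16 for the higher (-1.22 to 0.90).

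Between the 2 doses no member passed the threshold in edgeR. The log2 fold change of 30 mg/kg over 10 mg/kg ran from -0.90 to -0.22 in the 6 immune members and from -0.11 to 0.41 in the 4 epithelial members, and the difference between the branches was not tested. Ms4a6c had medians of 8.52, 14.4 and 7.61 TPM and Ms4a6b of 9.45, 11.8 and 8.63 TPM in the vehicle, 10 mg/kg and 30 mg/kg groups. This log2 fold change was -0.90 ± 0.25 (SE) in Ms4a6c and -0.78 ± 0.22 (SE) in Ms4a6b, both with an edgeR adjusted p of 0.116, and it was -0.95 ± 0.27 (SE) for Ptprc, with an adjusted p of 0.124. DESeq2 placed Ms4a6c (adjusted p = 0.0391) and Ms4a6b (adjusted p = 0.0398) past the threshold. In edgeR 0 of 10 members and 0 of 16948 genes (0.0%) were called between the doses, with 2451 genes at an unadjusted p under 0.05, and DESeq2 called 343 genes and limma 6. Of the epithelial members, Ms4a8a had a log2 fold change of -0.11 ± 0.20 (SE) and Ms4a18 one of 0.41 in this comparison. The 30 mg/kg libraries had 415, 2110 and 3296 TPM (lowest, median, highest) of smooth muscle genes in sum, and the 10 mg/kg libraries 167, 671 and 2213 TPM. Leukocyte genes summed to 174, 322.5 and 462 TPM in the 30 mg/kg libraries, against 439, 494 and 708 TPM in the 10 mg/kg libraries. The part of these lists in the difference was not tested.

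Both branches of the family were lower in colon of mice given the antibody to p40. All 9 members tested had a negative log2 fold change. Of these, 8 were called lower, 2 of 3 epithelial and 6 of 6 immune, where 8.32% of 16470 genes were called lower. The median log2 fold change of the 9 was -0.85, against 0.01 over all genes. Since the members were picked with their levels in these libraries known, the counts and p-values of members in this comparison are descriptions. Ms4a8a had 679, 455, 596, 579 and 676 TPM in the anti-p40 libraries, against 971, 1024, 1096, 953 and 777 TPM in the day 77 vehicle libraries. Every anti-p40 library lay below every vehicle library. The first cohort has a separate table, and cohort and group cannot be told apart, so no test of levels was made against it. Set beside the first cohort, the anti-p40 range of 455 to 679 TPM for Ms4a8a spanned the WT range of 510 to 629 TPM. For Ms4a12 all 5 anti-p40 libraries lay above every WT library, and for Ms4a7 4 of 5 did. For each of the other members 1 to 3 of 5 did. The log2 fold change of Ms4a8a was -0.80 ± 0.15 (SE, edgeR adjusted p = 0.00545), and it kept its call under each of the 15 alternatives.

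Ms4a12 had 57.8, 30.1, 59.1, 36.0 and 57.6 TPM in anti-p40 libraries, against 92.8, 84.4, 87.9, 54.0 and 63.8 TPM in vehicle libraries, and the groups overlapped in part. It fell by 0.79 ± 0.23 (SE) on the log2 scale with an edgeR adjusted p of 0.0392, but lost that call in 8 of 15 alternatives, among them the fits without vehicle library 1, 2 or 3 and without anti-p40 library 1, 2 or 4 (adjusted p = 0.054 to 0.0843). Ms4a10 had 4.27, 4.26, 2.18, 3.84 and 3.49 TPM in anti-p40 libraries, against 2.6, 4.78, 3.26, 9.81 and 4.73 TPM in vehicle libraries. The groups overlapped in 4 of 5 anti-p40 libraries, and the log2 fold change of -0.66 ± 0.28 (SE) did not pass (edgeR adjusted p = 0.123).

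Ms4a18 had 10 counts in all in the 5 anti-p40 libraries and 99 counts in the 5 vehicle libraries. In TPM these were 0.13, 0, 0.03, 0.04 and 0.22 under anti-p40, against 0.82, 0.71, 0.22, 0.67 and 1.12 under vehicle, so 4 of 5 anti-p40 libraries lay below every vehicle library. It did not pass the filter on low counts and was left out of the test; in edgeR without that filter, an alternative run after seeing the counts, the log2 fold change was -3.16 ± 0.63 (SE, adjusted p = 0.00599). The authors' deposited table gives -3.22 with an adjusted p of 0.000152 for it.

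Of the members known from mouse T cells, Ms4a4b had 0.89, 3.22, 0.74, 1.66 and 3.4 TPM in anti-p40 libraries, against 6.7, 5.17, 5.51, 5.11 and 4.58 TPM in vehicle libraries, without overlap. Its log2 fold change of -1.40 ± 0.40 (SE, edgeR adjusted p = 0.0335) was the largest in size of the 9. Ms4a6b had 8.03, 7.8, 6.48, 6.9 and 13.0 TPM in anti-p40 libraries, against 15.2, 11.2, 14.8, 18.0 and 10.1 TPM in vehicle libraries. In Ms4a6b a single anti-p40 library, at 13.0 TPM, reached the vehicle range, and the log2 fold change was -0.85 ± 0.15 (SE, edgeR adjusted p = 0.00453).

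Ms4a6c had 8.52, 6.71, 5.5, 6.26 and 7.05 TPM in anti-p40 libraries, against 10.6, 10.7, 18.3, 18.9 and 14.8 TPM in vehicle libraries, without overlap, a log2 fold change of -1.16 ± 0.22 (SE, edgeR adjusted p = 0.00587). Ms4a7 had 9.32, 8.66, 8.2, 7.19 and 9.1 TPM in anti-p40 libraries, against 10.7, 9.95, 10.4, 12.6 and 13.9 TPM in vehicle libraries, also without overlap. Its log2 fold change of -0.60 ± 0.14 (SE, edgeR adjusted p = 0.0142) was the smallest in size of the 8 called. In Ms4a4c and Ms4a6d the groups overlapped, with log2 fold changes of -1.08 ± 0.31 (SE, adjusted p = 0.0357) and -1.02 ± 0.31 (SE, adjusted p = 0.042).

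Complete separation in TPM was therefore seen in 4 members, Ms4a8a, Ms4a4b, Ms4a6c and Ms4a7, where 4.19% of genes had every anti-p40 library below every vehicle library. Ms4a6c, like Ms4a8a, kept its call in all 15 alternatives, and Ms4a6b and Ms4a7 lost it in limma alone (adjusted p = 0.0509 and 0.0526). Ms4a4b lost it in 5, without vehicle library 1 or 4 or anti-p40 library 1, 3 or 4 (adjusted p = 0.0523 to 0.0738). Ms4a4c lost it in 7, limma (0.319) and the fits without vehicle library 1, 3 or 4 or anti-p40 library 1, 4 or 5 (0.0566 to 0.0663). Ms4a6d lost it in 7, limma (0.0634), edgeR with no filter on low counts (0.0611) and the fits without vehicle library 4 or anti-p40 library 2, 3, 4 or 5 (0.066 to 0.101). None of the 6 other Ms4a and Tmem176 genes tested was called in edgeR; 4 of them had an unadjusted p under 0.05, the largest in size being Ms4a4d at -0.72 ± 0.23 (SE, adjusted p = 0.0521). Ms4a4d and Tmem176a (edgeR adjusted p = 0.0504) each passed in 3 of 15 alternatives: edgeR with DESeq2 size factors (adjusted p = 0.0492 and 0.0466), DESeq2 (0.0133 and 0.0262) and 1 leave-one-out fit each, without anti-p40 library 5 for Ms4a4d (0.046) and without vehicle library 2 for Tmem176a (0.0246). Epcam changed by -0.11 ± 0.17 (SE, adjusted p = 0.692) and Ptprc by -0.62 ± 0.23 (SE, adjusted p = 0.0891). Relative to Epcam, Ms4a8a stood at 37.1% to 57.6% in anti-p40 libraries and at 61.3% to 82.9% in vehicle libraries. Relative to Ptprc, Ms4a4b stood at 5.01% to 15.1% in anti-p40 libraries and at 18.7% to 31.6% in vehicle libraries, and the other 5 immune members overlapped.

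Marker lists moved in the same comparison, where 8.32% of 16470 genes were called lower. Macrophage and monocyte genes summed to between 208 and 253 TPM in anti-p40 libraries and between 406 and 542 TPM in vehicle libraries, with 9 of 11 called lower, and T cell genes to between 28.5 and 56.0 TPM in anti-p40 libraries and between 56.7 and 85.7 TPM in vehicle libraries, with 5 of 8 called lower. Neutrophil genes summed to between 218.5 and 949 TPM in anti-p40 libraries and between 528 and 4386 TPM in vehicle libraries, with 3 of 4 tested called lower (median log2 fold change -5.20). Genes of NK and cytotoxic cells summed to between 3.17 and 10.8 TPM in anti-p40 libraries and between 16.0 and 88.5 TPM in vehicle libraries, with 4 of 5 tested called lower (median -2.40), and 7 of 8 interferon response genes were called lower (median -1.81). Smooth muscle genes summed to between 2388 and 5474 TPM in anti-p40 libraries and between 694.5 and 2076 TPM in vehicle libraries, with 4 of 5 called higher. Surface colonocyte genes went the other way from Ms4a8a and Ms4a12. They summed to 4901 to 7251 TPM in anti-p40 libraries and 856 to 3174 TPM in vehicle libraries, with 3 of 9 called higher. Over all genes 1375 of 16470 were called higher. The epithelium list overlapped, at 9138 to 17019 TPM in anti-p40 libraries and 10486 to 15577 TPM in vehicle libraries. Of its genes 1 of 8 was called lower (median log2 fold change -0.29). Leukocyte genes summed to 139 to 365.5 TPM in anti-p40 libraries and 296 to 570 TPM in vehicle libraries, with 1 of 6 called lower (median -0.60). The part of these lists in the members' levels was not tested.

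A test of the difference between treatments, anti-p40 over its vehicle minus 30 mg/kg over its vehicle, called Ms4a8a alone of the 10 members, at -1.0 ± 0.27 (SE, edgeR adjusted p = 0.0391), where 1.65% of 18021 genes were called. That call was lost in edgeR with no filter on low counts (adjusted p = 0.0563) and in 7 of the 10 fits that each left out 1 day 77 library, namely vehicle library 2, 3 or 4 or anti-p40 library 1, 2, 3 or 4 (adjusted p = 0.052 to 0.116). Cohort and agent cannot be told apart in this contrast. Of the other 9 members, the difference ranged from -0.33 ± 0.34 (SE) in Ms4a7 to -2.96 ± 0.97 (SE) in Ms4a18 (edgeR adjusted p = 0.108).

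The 2 branch names were checked against Epcam and Ptprc over the 26 grouped knockout libraries of the first cohort, on log2(CPM + 1), with 20 relations computed and p-values from 100000 permutations of the libraries adjusted over all 16947 genes. Libraries share their scaling, which can tie genes together. Ms4a8a followed Epcam, with Pearson r = 0.81 and Spearman rho = 0.69 (permutation p = 1e-05 and 9e-05, adjusted p = 0.000367 and 0.00214), and 99.2% of genes had a lower r. With Ptprc its r was 0.30 (adjusted p = 0.269). The relation to Epcam held in knockout vehicle (r = 0.89) and 10 mg/kg libraries (r = 0.90), was 0.41 at 30 mg/kg and 0.54 in WT libraries, and was 0.75 without the 2 libraries farthest from the Epcam median. On log2(TPM + 1) r was lower, at 0.52.

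Ms4a12 had r = 0.56 and rho = 0.46 with Epcam (permutation p = 0.00272 and 0.0204, adjusted p = 0.0146 and 0.0684), so only the Pearson value passed. Without the 2 farthest libraries r fell to 0.36 (permutation p = 0.0814), so whether it passed depended on those libraries. With each group centred on its mean r was 0.57, and on log2(TPM + 1) it was 0.61. By group it was 0.81 in knockout vehicle, 0.75 at 10 mg/kg, 0.05 at 30 mg/kg and 0.76 in WT libraries. Ms4a10 and Ms4a18 passed with neither marker, at r = 0.36 and 0.07 with Epcam and 0.25 and 0.19 with Ptprc, so Epcam did not single them out as epithelial in these libraries. For comparison, 14.2% of all genes passed with a positive r for Epcam and 11.0% for Ptprc.

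**Figure D4:**
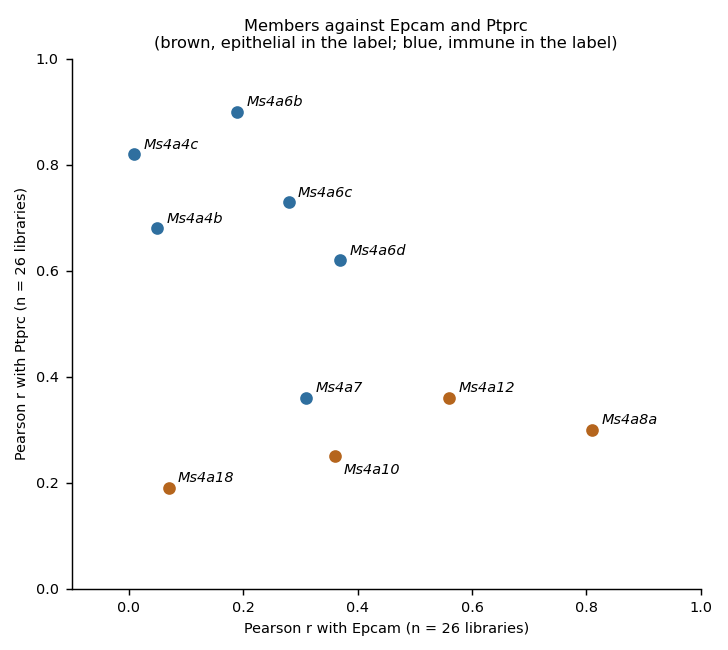
Pearson r of each member with Epcam (horizontal axis) and with Ptprc (vertical axis) over the 26 grouped knockout libraries of the first cohort. Ms4a8a and Ms4a12 lie to the right, 5 immune members lie at the top left, and Ms4a7, Ms4a10 and Ms4a18 lie between 0.07 and 0.36 on both axes.

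Among the immune members, 5 of 6 passed with Ptprc and none with Epcam. With each group centred on its mean, where p-values are unadjusted, the split was less clear: Ms4a6d (r = 0.46, permutation p = 0.024) and Ms4a7 (r = 0.40, permutation p = 0.0497) passed with Epcam, and Ms4a8a (r = 0.38, permutation p = 0.0467) and Ms4a12 (r = 0.47, permutation p = 0.0235) with Ptprc. The values with Ptprc were r = 0.90 and rho = 0.89 for Ms4a6b, 0.82 and 0.80 for Ms4a4c, 0.73 and 0.69 for Ms4a6c, 0.68 and 0.74 for Ms4a4b and 0.62 and 0.58 for Ms4a6d. Their permutation p-values for r ran from 1e-05, the smallest that 100000 permutations can give, to 0.00088 in Ms4a6d, with adjusted p-values from 0.000484 to 0.00896, and those for rho from 1e-05 to 0.00257, adjusted 0.000637 to 0.0176. Without the 2 libraries farthest from the Ptprc median, r was 0.88 for Ms4a6b, 0.75 for Ms4a4c, 0.66 for Ms4a6c, 0.63 for Ms4a4b and 0.50 for Ms4a6d. Within groups, r for Ms4a6b was 0.95 in knockout vehicle, 0.46 at 10 mg/kg and 0.91 at 30 mg/kg, and for Ms4a4c 0.95, 0.26 and 0.61. Ms4a7 had r = 0.36 and rho = 0.37 (permutation p = 0.0688 and 0.063, adjusted p = 0.162 and 0.155) and did not pass. In WT colon, Ms4a4b, Ms4a4c and Ms4a6b again followed Ptprc (r = 0.90, 0.87 and 0.94 over 8 libraries), and Ms4a6c, Ms4a6d and Ms4a7 had r = 0.39, -0.41 and -0.32. Over the 10 day 77 libraries, with each group centred on its mean, r with Ptprc was 0.83 for Ms4a4b and 0.70 for Ms4a6b. It was 0.17 for Ms4a6c and 0.05 for Ms4a6d. With Epcam, r there was 0.52 for Ms4a8a and 0.49 for Ms4a12, and neither passed (unadjusted permutation p = 0.169 and 0.166). The epithelial members Ms4a10 and Ms4a18 had r = -0.20 and -0.57 with Epcam. Of the immune members, Ms4a6d, Ms4a6c and Ms4a7 had r = 0.60, 0.44 and 0.34 with it. Ms4a4b, Ms4a4c and Ms4a6b had -0.08, 0.01 and 0.02.

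**Figure D5:**
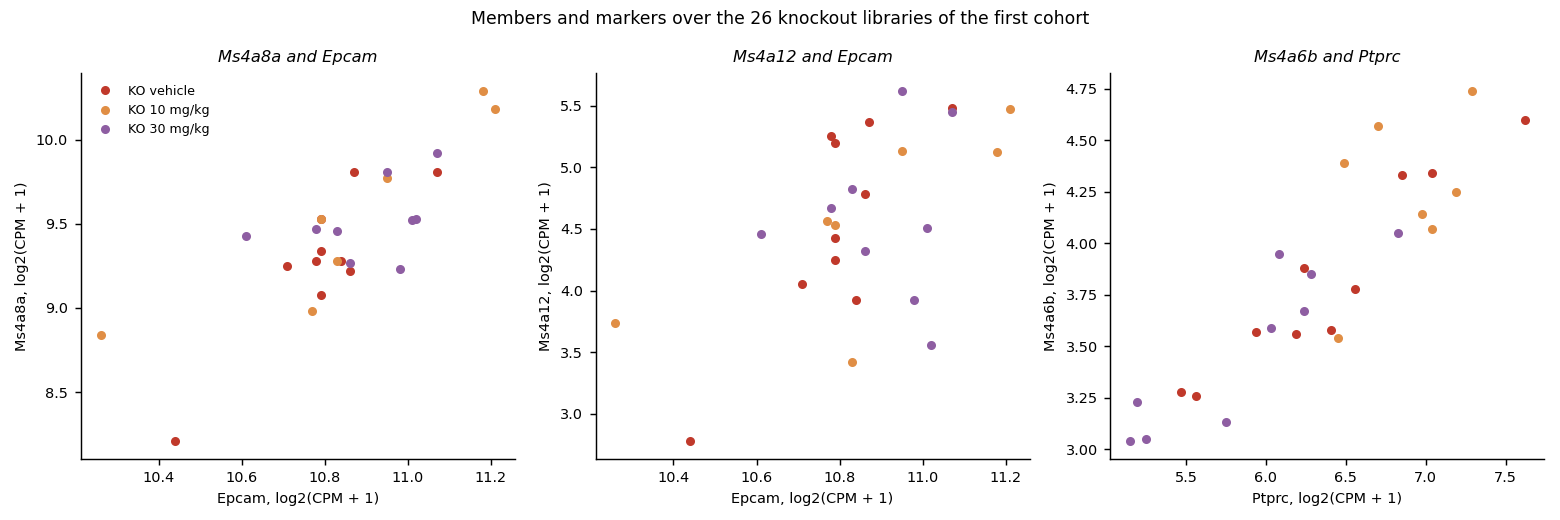
Log2(CPM + 1) of Ms4a8a and Ms4a12 against Epcam and of Ms4a6b against Ptprc, with 1 point per library, coloured by knockout group (vehicle, 10 mg/kg, 30 mg/kg). Ms4a8a and Ms4a6b rise with their marker, and 1 vehicle library is lowest in both Ms4a8a and Ms4a12.

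Against the means of longer marker lists, tried after the single markers, the branches overlapped, given here as descriptions over the same 26 libraries. Ms4a8a had r = 0.89 and Ms4a12 r = 0.79 with the epithelium list, but -0.04 for Ms4a12 with the surface colonocyte list, where Ms4a8a had 0.42. The immune members Ms4a6d, Ms4a6c and Ms4a7 had r = 0.60, 0.49 and 0.48 with the epithelium list, above Ms4a10 (0.29) and Ms4a18 (0.28). Ms4a4b was closest to the T cell list (r = 0.75), Ms4a4c to the leukocyte list (0.84) and the B cell list (0.74), and Ms4a6b to the leukocyte list (0.88). With the T cell list Ms4a6b had 0.72, and with the macrophage and monocyte list 0.73. Ms4a6c, Ms4a6d and Ms4a7 were close to the macrophage and monocyte list, at 0.86, 0.86 and 0.78. Ms4a12 and Ms4a10 had r = 0.57 and 0.56 with that list. With the neutrophil list Ms4a6d had 0.88, Ms4a8a 0.73 and Ms4a12 0.72, and with the interferon response list Ms4a12 had 0.72 and Ms4a8a 0.71. Without the 2 libraries farthest from the list median, the neutrophil values were 0.81, 0.69 and 0.75, and the interferon values 0.56 and 0.45. Of all genes, 36.1% passed with the neutrophil list and 35.1% with the interferon response list, in either direction. All 10 members were negative with the smooth muscle list, from -0.27 in Ms4a18 to -0.85 in Ms4a6c, where the median of all genes was 0.06.

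The 3 genes most alike each member over those libraries, by Pearson r, are given next as descriptions. For Ms4a8a they included Mpi, a mannose phosphate isomerase, at 0.96, and Plac8, at 0.95. For Ms4a12 they were the Golgi protein gene Golm1 (0.91), the endotoxin co-receptor gene Cd14 and Nfkbiz, a modulator of NF-kB (both 0.90). For Ms4a18 they were Pmvk (0.70) and Mvk (0.67), successive kinases of the mevalonate pathway, and Hebp2 (0.65). For Ms4a10 none exceeded 0.81, with Ikzf2 and Vps18 at that value and Lrmp at 0.79.

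For Ms4a4b the likest genes were those of T cells, Lat (0.80), Il7r (0.76) and Cd5 (0.75), while for its neighbour Ms4a4c they were March1 (0.92), a ubiquitin ligase of antigen-presenting cells, Plek (0.90) and the adhesion molecule gene Vcam1 (0.88). Ms4a4b and Ms4a4c had r = 0.45 with each other. Ms4a6b was nearest to the leukocyte genes Cd53 (0.92), Lcp2 and Itgb2 (both 0.91). Ms4a6c was nearest to Ccr1, Pla2g7 and the scavenger receptor gene Msr1 (all 0.93), and Ms4a6d to the chemokine receptor gene Ccr2 (0.92), Csf3r and Ccr1 (both 0.91). For Ms4a7 they were Tlr12, Ido2 and Cd300c2, each at 0.80.

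Among the members themselves, the 15 immune pairs had a median r of 0.72 (range 0.09 to 0.85), the 6 epithelial pairs 0.36 (0.11 to 0.77) and the 24 pairs across branches 0.40 (-0.09 to 0.69). The highest epithelial pair was Ms4a8a with Ms4a12, at 0.77. The highest immune pairs were Ms4a6b with Ms4a6c and Ms4a6c with Ms4a6d, both at 0.85, and Ms4a4b with Ms4a7 was lowest at 0.09. Across branches the highest was Ms4a12 with Ms4a6d, at 0.69. Near-identical stretches shared by Ms4a6b and Ms4a6c, and by Ms4a4b and Ms4a4c, can raise the r of those pairs.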

How the data were processed

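Poly(A) RNA-seq of mouse distal colon was deposited by the authors as 2 tables of expected counts and 2 of TPM, for 35 and 10 libraries, with 4 tables of comparisons (log2 fold changes and p-values by the authors). RSEM 1.3.3, the aligner STAR 2.7.8a, DESeq2 1.30.1, the trimmer cutadapt 3.7 and the mm10 build are named, per the submitters' processing notes; the settings of each are not given in the sources used here. Of the deposited expected counts above 0, 20.4% in the table of 10 libraries and 17.1% in the table of 35 were not whole, and all were rounded before testing. Of 50600 gene IDs, 50376 matched a symbol.

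Counts were tested with edgeR 4.0.16 (R 4.3.3; TMM scaling, robust quasi-likelihood, filterByExpr), with Benjamini-Hochberg adjustment over all genes tested and a threshold of 0.05. Knockout vehicle and WT were fitted alone, the 3 knockout groups of the first cohort together, the day 77 groups alone, and all 6 groups together for the difference between treatments. Fold changes are on the log2 scale with an SE. The SE was worked back from the test, as the absolute log2 fold change over the square root of the quasi-likelihood F. The intervals were built from that SE. Alternatives were DESeq2 1.42.0, DESeq2 size factors, no filter or a filter of 1 CPM, limma 3.58.1 on log2(TPM + 1) of the TPM deposited by the authors for genes with a mean TPM of at least 0.5, and leaving out each library. Correlations used log2(CPM + 1) and two-sided permutation tests. The edgeR and correlation steps were tested on simulated data. Total counts were 22682471 to 36279743 per library, and a count of 0 allows up to 3 counts, for counting error only.

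All members are named in every comparison; other Ms4a and Tmem176 genes, Epcam, Ptprc and Il10 are named by rule, and the 3 genes with the highest r for each member. One of the genes this rule gives for Ms4a8a is not reported here. The members and all lists were chosen with earlier results of these data known, and members therefore have no p-value in the comparison of knockout vehicle with WT. The p-values of members in the other comparisons are subject to the same limit. Libraries are numbered in accession order. One library with conflicting dose entries was left out of every comparison.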

Additional observations from a re-analysis of the deposited data

Results flagged for a closer look

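Within groups of 7 to 10 or of 5 libraries, 5 of 60 combinations of member and group held 1 library far from the rest; chance gives about 1 in 20. Ms4a18 had 2.99 TPM in knockout vehicle library 4, Ms4a6c had 22.13 TPM in knockout vehicle library 2, and Ms4a6b had 13.04 TPM in anti-p40 library 5. At 30 mg/kg, library 8 stood apart in 2 macrophage members at once, with 22.57 TPM of Ms4a6d and 14.9 TPM of Ms4a7.

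The response of Ms4a8a differed between the treatments, by -1.0 on the log2 scale for anti-p40 over its vehicle minus 30 mg/kg over its vehicle (edgeR adjusted p = 0.0391). That call was lost in 8 of 15 alternatives, with adjusted p-values of up to 0.116. Cohort and agent cannot be told apart in that difference.

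The knockout library with conflicting dose entries exceeded every WT library in 7 of 10 members, with 894 TPM of Ms4a8a, 35.2 TPM of Ms4a12, 0.36 TPM of Ms4a18, 6.67 TPM of Ms4a4b, 8.26 TPM of Ms4a4c, 13.2 TPM of Ms4a6b and 8.7 TPM of Ms4a6c. It lay within the WT range for Ms4a10, Ms4a6d and Ms4a7.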

How the results depend on the processing

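No member changed sign with a call under any alternative. In knockout vehicle over WT, 215 of 220 alternative values of members kept their call and the other 5 were all of Ms4a10. Under anti-p40, 106 of 135 kept their side of the threshold. The members were chosen with their levels in these libraries known, so these counts are descriptions and nothing is read from them. The number of genes called was 3 (30 mg/kg over vehicle), 72 (10 mg/kg over vehicle), 343 (30 over 10 mg/kg) and 640 (difference between treatments) in DESeq2, against 0, 2, 0 and 297 in edgeR, and 20 and 6 in limma for 10 mg/kg over vehicle and 30 over 10 mg/kg. Leaving out 1 library gave 7199 to 9102 genes for knockout vehicle over WT, 0 to 0 for 30 mg/kg over vehicle, 1 to 18 for 10 mg/kg over vehicle, 0 to 75 for 30 over 10 mg/kg, 1637 to 2522 for anti-p40 (1637 without anti-p40 library 2, against 2745) and 167 to 361 for the difference between treatments (167 without day 77 vehicle library 3 and 170 without anti-p40 library 2). The leave-one-out fits of that difference, the unfiltered fit of Ms4a18, the longer marker lists and the ratios to Epcam and Ptprc were added after seeing the data. In limma the difference between treatments had 213 higher of 352 calls, against 80 of 297 in edgeR, with the median of all genes at 0.18, and anti-p40 had 1150 higher of 1953, against 1375 of 2745. The cause was not tested. No paired analysis was possible because the libraries carry no replicate numbers that link groups. Ms4a18 rests on few counts: its difference of mean log2(TPM + pseudocount) between knockout vehicle and WT was 2.44 with a pseudocount of 0.1. For anti-p40 minus day 77 vehicle it was -2.14. Each differed from the value with a pseudocount of 1 by at least the pooled SD within groups.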

Other observations

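Of the other Ms4a genes in the cluster, Ms4a13 was listed at 0 in every library. Ms4a1, the CD20 gene of B cells, had a log2 fold change of 1.18 ± 0.42 (SE) in knockout vehicle over WT colon and of -0.07 ± 0.57 (SE, edgeR adjusted p = 0.948) in anti-p40 over day 77 vehicle colon. B cell genes had 0 of 6 called under anti-p40. For 30 mg/kg over 10 mg/kg, Ms4a1 had a log2 fold change of -1.12 ± 0.34 (SE, edgeR adjusted p = 0.145), Tmem176a of -0.54 ± 0.13 (SE, adjusted p = 0.0834) and Tmem176b of -0.50 ± 0.13 (SE, adjusted p = 0.101), and DESeq2 called all 3 (adjusted p = 0.0446, 0.023 and 0.0367).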
